A study of Arabidopsis thaliana with 12 samples.

Results

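A set of 82 Arabidopsis genes had low transcript levels in iron-deficient roots that overexpressed IMA1, relative to roots of a control line that overexpressed EYFP. The genes were chosen from 33606 gene rows of the root table for Fe-deficient medium. The mean of log2(value + 1) in the 2 IMA1 OE libraries had to lie at least 0.8 below that of the 2 EYFP OE libraries, both IMA1 OE values had to lie under both EYFP OE values, and both EYFP OE values had to be at least 2. A fall of that size was found for 114 genes, of which 89 also met the minimum and 82 also had no overlap. Of the 17866 genes with both EYFP OE root values at least 2, the chosen genes are 0.459%.

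IMA1 encodes a short peptide that acts as a positive regulator of Fe acquisition. When Fe is short, Arabidopsis roots switch on reductases, transporters and regulators that bring Fe in, and the broad metal range of the main root Fe importer brings zinc and other metals into the root as well. Zinc transporters of the ZIP family are switched on when zinc is short, and microRNA398 is made when copper is short and lowers the transcripts of copper/zinc superoxide dismutases. Iron, zinc and copper are also tied together through nicotianamine, a small molecule that carries these metals between cells.

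Polyadenylated RNA of the Columbia-0 background was measured in 6 groups of 2 libraries: IMA1 OE on Fe-deficient medium, IMA1 OE on full medium and EYFP OE on full medium, each as roots and as whole rosettes. In IMA1 OE the 35S promoter, which is active in most cells, drove the IMA1 open reading frame, and in EYFP OE it drove the fluorescent protein EYFP. Both lines are thus transgenic, and 1 line stands for each. All plants were raised on complete medium (1.5% sucrose, 25 seedlings to a plate, constant light at 50 µmol) and moved to new plates after 10 days, where they stayed for 72 hours. The new plates held complete medium, or medium with no added Fe and 100 µM of the Fe chelator FerroZine. EYFP OE plants on Fe-deficient medium were not analysed here, so wherever Fe-deficient IMA1 OE is compared the transgene and the medium change together, and their parts cannot be told apart.

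Values are the authors' normalized signal, which has no stated unit and carries no read depth, so the precision that depth gives is unknown. For rosettes of Fe-deficient IMA1 OE the column headings of the table read as if Fe had been supplied; the sample labels name that table for the Fe-deficient rosettes and were followed, and the doubt touches every value given for them. The labels do not say that replicates came from separate cultures, so the p-values measure only the spread between these libraries. Root libraries held root markers at summed values of 214 to 246 (8 genes), and rosette libraries held them at 1.11 to 2.38, so both tissues matched their labels. The 11 green-tissue markers summed to 272 to 648 in roots and to 48751 to 58676 in rosettes.

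The chosen genes include a pair of copper-related microRNA genes, MIR398b (AT5G14545) and MIR398c (AT5G14565), whose mature products are shown because every base of their 3p arms is the same. The sequences are from RefSeq, build TAIR10.1, with the seed (bases 2 to 8) in capitals. MIR398a, the other locus of the family, is not among the 82 genes, and its 3p arm differs from that of MIR398b by the substitution U21G, counted from 1 at the 5′ end of the microRNA and written with the base of miR398a first.
ath-miR398b-3p: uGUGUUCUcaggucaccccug
ath-miR398c-3p: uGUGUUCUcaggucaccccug
ath-miR398a-3p: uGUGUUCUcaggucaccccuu
The 3p arms lie at chr5:4691107-4691127 for MIR398b, chr5:4694778-4694798 for MIR398c and chr2:1041012-1041032 for MIR398a, all on the plus strand. Libraries of polyadenylated RNA measure the primary transcripts of these loci and not the mature microRNAs.

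Upstream sequences are shown for the genes of the metal groups that hold either of a pair of short motifs in several copies or in a rare palindrome. GTAC is the core that the copper-response regulator SPL7 is known to bind, and TGTCGACA is the core of the zinc deficiency response element, known to be bound by the zinc-response regulators bZIP19 and bZIP23. Both read the same on either strand, and their letters do not let them overlap each other. The windows are the 300 bases before the annotated start in RefSeq, build TAIR10.1, written 5′ to 3′ on the gene's strand. Capitals mark only the motif for which a window is listed. For the microRNA genes the annotated start is that of the precursor, so part of the window may itself be transcribed. The GTAC windows are chr5:4690722-4691021 (plus strand) for MIR398b, chr5:4694394-4694693 (plus) for MIR398c, chr5:8323595-8323894 (plus) for YSL2 and chr5:23992909-23993208 (minus) for ZIP2.
MIR398b: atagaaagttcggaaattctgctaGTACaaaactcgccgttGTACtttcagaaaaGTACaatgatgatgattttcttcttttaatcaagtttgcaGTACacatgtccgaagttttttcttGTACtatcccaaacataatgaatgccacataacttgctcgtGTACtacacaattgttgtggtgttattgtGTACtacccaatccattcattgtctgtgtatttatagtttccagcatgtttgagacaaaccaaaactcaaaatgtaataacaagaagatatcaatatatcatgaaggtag
MIR398c: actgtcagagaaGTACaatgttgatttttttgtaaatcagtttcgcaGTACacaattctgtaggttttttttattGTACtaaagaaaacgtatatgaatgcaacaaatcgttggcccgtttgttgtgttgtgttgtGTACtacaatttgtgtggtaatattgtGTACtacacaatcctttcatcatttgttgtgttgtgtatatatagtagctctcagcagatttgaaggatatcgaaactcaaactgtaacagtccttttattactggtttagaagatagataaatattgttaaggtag
YSL2: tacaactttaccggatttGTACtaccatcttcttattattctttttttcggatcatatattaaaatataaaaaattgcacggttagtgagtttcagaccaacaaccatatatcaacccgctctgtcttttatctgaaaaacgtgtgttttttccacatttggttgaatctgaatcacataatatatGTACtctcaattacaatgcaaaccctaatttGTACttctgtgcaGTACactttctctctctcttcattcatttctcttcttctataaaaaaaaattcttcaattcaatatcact
ZIP2: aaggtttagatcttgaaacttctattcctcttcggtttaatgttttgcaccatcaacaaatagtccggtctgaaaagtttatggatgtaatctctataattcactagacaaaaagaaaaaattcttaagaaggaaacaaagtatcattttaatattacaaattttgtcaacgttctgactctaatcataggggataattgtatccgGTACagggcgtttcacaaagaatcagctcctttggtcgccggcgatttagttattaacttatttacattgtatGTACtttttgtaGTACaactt
MIR398b held 7 copies of GTAC, and 0.0072% of 27769 upstream windows of the genome held as many or more. MIR398c held 5 copies (0.108% held as many or more), YSL2 held 4 (0.468%) and ZIP2 held 3 (2.24%). At least 1 copy was present in 4 of the 4 copper genes, in 3 of the 7 zinc genes and in 39.7% of all windows. Of the copper genes, CCH held 1 copy. The groups were chosen with earlier results of these data known, so their counts are a description and not a test. Among the 76 chosen genes with a window the share was 42.1%, close to that of all windows.
The TGTCGACA windows are chr1:22447300-22447599 (minus) for IRT3 and chr1:3667140-3667439 (minus) for ZIP4. The IRT3 window also holds 1 copy of GTAC, left in lower case.
IRT3: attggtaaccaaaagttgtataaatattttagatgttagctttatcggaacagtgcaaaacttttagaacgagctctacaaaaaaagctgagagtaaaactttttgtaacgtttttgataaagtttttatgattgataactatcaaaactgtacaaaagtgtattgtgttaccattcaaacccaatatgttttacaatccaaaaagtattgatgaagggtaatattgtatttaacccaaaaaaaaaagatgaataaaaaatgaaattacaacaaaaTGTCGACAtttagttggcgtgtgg
ZIP4: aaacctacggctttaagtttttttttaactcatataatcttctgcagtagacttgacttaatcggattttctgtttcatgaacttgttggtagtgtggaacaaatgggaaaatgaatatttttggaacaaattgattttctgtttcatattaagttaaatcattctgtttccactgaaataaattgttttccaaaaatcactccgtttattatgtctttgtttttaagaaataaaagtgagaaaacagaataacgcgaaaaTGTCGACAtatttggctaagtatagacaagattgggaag
This motif was found in 2 of the 7 zinc genes and in 0.321% of all windows, and in 0 of the other chosen genes with a window. A match of letters is a description of the window, and binding was not measured. CACGTG, the G-box, was in 11 of the 76 windows of the chosen genes (14.5%) and in 7.05% of all. GNATATNC, the phosphate-response site, was in 9 of the 76 (11.8%) and in 6.54% of all. CCGAC, the core bound by cold-response factors, was in 10 of the 76 (13.2%) and in 13.9% of all. All motifs were searched on both strands.

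Across the 82 genes the fall that chose them had a median of -1.04 on the log2(value + 1) scale and ran from -7.04 to -0.80. Those values are the selection and carry no test. With 1 library left out, fewer values had to be separate, and the rule found 101 genes without IMA1 OE replicate 1, 171 without IMA1 OE replicate 2, 144 without EYFP OE replicate 1 and 134 without EYFP OE replicate 2. At the edge of the rule ZIP1 (-0.80), PLP4 (-0.81) and ATCG00790 (-0.80) lay just inside, and AT1G73810 (-0.80), AT4G01390 (-0.79) and GSTU18 (-0.79) just outside. In limma's fit over 19673 genes, 22 of the 82 passed an adjusted p of 0.05 as lower, where 0.147% of all tested genes did; the rule used that contrast, and nothing is read from the count. By annotation 79 of the 82 genes were found in RefSeq, among them 74 protein-coding genes, 2 microRNA genes and 1 ribosomal RNA gene. They were spread over the 5 nuclear chromosomes, with 10 to 23 genes on each. A count of 5 pairs lay within 20000 bases of each other, among them CAB1 with CAB3, KIN1 with KIN2 and MIR398b with MIR398c. In whole roots, fewer cells of a type and less RNA per cell cannot be told apart.

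On full medium the same genes were mostly, but less far, below the EYFP OE roots. The median change in IMA1 OE roots on full medium was -0.59, beside -0.01 over all 19741 tested genes, and 74 of the 82 were negative. Both IMA1 OE values lay under both EYFP OE values for 50 of the 82, where 16.6% of genes with EYFP OE root values of at least 2 did so, and above both for 4, where 13.1% did so. The root comparisons share their EYFP OE libraries, so a low value here is partly built in by the choice of the genes.

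**Figure D1:**
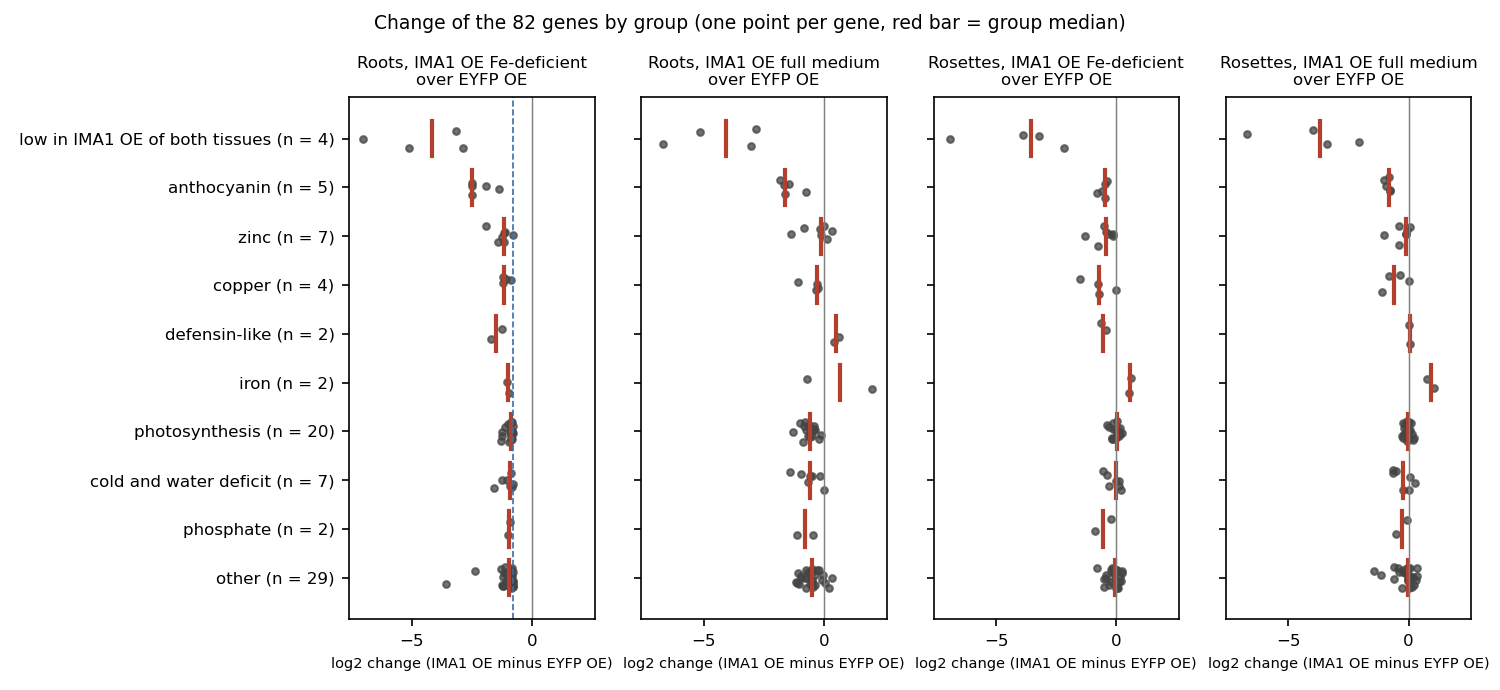
Each point is 1 of the 82 genes, placed by its log2 change in each of the 4 comparisons (IMA1 OE minus EYFP OE, log2(value + 1) scale, horizontal axis). The top row holds the 4 genes grouped for being low in all 4 comparisons, so their low values there follow from that choice. The rows below it are grouped by function, with the remaining genes last. The red bar is the group median and the dashed line in the left panel is the 0.8 limit of the rule. Medians of the zinc group lay at -1.17 in Fe-deficient roots and at -0.15 in full-medium roots.

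By the rule's own conditions of fall and overlap, 20 of the 82 genes were also lower in IMA1 OE roots on full medium. Among genes with EYFP OE root values of at least 2, 0.173% met those conditions. Another 30 of the 82 lay below both EYFP OE values with a smaller fall, 28 overlapped, and 4 lay above. The 20 genes comprised the 4 that were low in both tissues (below), HMA2 and NAS4 of the zinc group, MIR398b, the light-harvesting genes CAB1, CAB3 and LHCB2.2, the photorespiratory oxidase GOX1, the cold genes COR15A and KIN1, the phosphate-starvation transcript AT5G03545, VSP2, CWINV5, SADHU3-2, AT2G23400, AT1G78450 and AT5G38980. Their median was -1.22 on Fe-deficient medium and -1.12 on full medium. The count depended on single libraries: it was 12 without IMA1 OE replicate 1, 42 without IMA1 OE replicate 2, 29 without EYFP OE replicate 1 and 22 without EYFP OE replicate 2. In limma, 3 of the 82 passed on full medium (AT3G01345, AT5G15360 and AT3G33528), where 0.0152% of tested genes passed as lower; without either EYFP OE library 0 passed, and without IMA1 OE replicate 1 the call was that of AT3G01345 alone.

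Rosettes are libraries the rule did not use. Both rosette comparisons share the same EYFP OE libraries, so a change seen on both media in rosettes is not an independent repeat. There the median change of the 82 genes was -0.13 in Fe-deficient IMA1 OE and -0.06 in IMA1 OE on full medium, beside -0.03 and -0.03 over all tested genes of those tables. Both IMA1 OE values lay under both EYFP OE values for 22 of the 82 on Fe-deficient medium and for 17 on full medium. Among all genes with EYFP OE root values of at least 2 the shares were 18.8% and 17.9%. The full conditions of the rule were met by 8 genes on Fe-deficient medium (0.218% of genes with EYFP OE rosette values of at least 2) and by 9 on full medium (0.321%). Without IMA1 OE replicate 2 the counts were 13 and 18, and without EYFP OE replicate 2 they were 17 and 15. Of the 64 and 65 genes high enough to be tested, 1 passed limma's adjusted p of 0.05 in each rosette table, AT3G01345, where 0.00535% and 0.0107% of tested genes passed as lower. At an unadjusted p under 0.05, 12 were lower on Fe-deficient medium (1.76% of all tested genes) and 7 on full medium (1.51%).

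The genes lower by the rule's conditions in all 4 tables were AT3G01345, AT5G15360, AT3G33528 and AT3G41979. The first 3 are annotated as uncharacterized proteins, and AT3G41979 as a 5.8S ribosomal RNA, a component of the large ribosomal subunit that exists in many copies, so its value is uncertain. AT3G01345 was at 0.21 and 0.05 in Fe-deficient IMA1 OE roots, against 156 and 139 in EYFP OE roots. Its values in IMA1 OE roots on full medium were 0.88 and 0.09, against 155 and 139 in EYFP OE. In rosettes it stood at 0.07 and 0.17 on Fe-deficient medium, against 139 and 129, and at 0.55 and 0.05 on full medium, against 140 and 129. The transcript was thus under 1 in each of the 8 IMA1 OE columns and at 129 or more in each EYFP OE column. The log2 change in rosettes was -6.91 on Fe-deficient medium (SE 0.12, limma adjusted p 0.0017) and -6.73 on full medium (SE 0.22, limma adjusted p 0.00862), and both calls were lost when any 1 of the 4 libraries was left out.

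AT5G15360 was at 0.18 and 0.32 in Fe-deficient IMA1 OE roots, against 47.8 and 37.3 in EYFP OE roots. In rosettes its IMA1 OE values were 0.1 and 0.02 on Fe-deficient medium, against 19.7 and 10.9, and 0.02 in both libraries on full medium, against 19.9 and 11.1. The groups were far apart in every table, but the rosette changes of -3.89 and -3.96 (SE 0.29 each) did not pass (limma adjusted p 0.31 and 0.119). AT3G33528 stood at 0.1 and 0.2 in Fe-deficient IMA1 OE roots, against 7.29 and 7.58 in EYFP OE roots, and changed by -2.18 (SE 0.21) in Fe-deficient and -2.04 (SE 0.30) in full-medium rosettes, where its limma adjusted p was 0.483 and 0.252. AT3G41979 was at 528 and 172 in Fe-deficient IMA1 OE roots, against 2438 and 3091 in EYFP OE roots, with changes of -3.22 (SE 0.53) and -3.38 (SE 0.25) in the same rosettes at limma adjusted p values of 0.648 and 0.119. In a fit blocked on replicate number all 4 passed in rosettes on full medium.

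For these 4 the difference of the root changes, Fe-deficient minus full, had a median of -0.10. It is set across separately normalized tables that share their EYFP OE libraries. AT3G01345, AT5G15360 and AT3G33528 were under 1 in every IMA1 OE root library on both media. Near that floor log2(value + 1) leaves little room for a difference, so a lack of response to the medium is not read from it. Neighbours were sought among genes with both EYFP OE root values at least 2, so genes of low root signal were passed over. Of the 3 nearest such genes on each side of each of the 4, 16 lay within 20000 bases. Their changes in the 4 comparisons ran from -0.58 to 0.22. SADHU3-2 (AT3G42658), of a family of retroelements, was at 2.4 and 1.95 in Fe-deficient IMA1 OE roots, against 5.51 and 5.89 in EYFP OE roots. It was also low in full-medium roots (-1.08), full-medium rosettes (-1.14, SE 0.22, limma adjusted p 0.358) and Fe-deficient rosettes (-0.79, SE 0.21, limma adjusted p 0.79), the last just short of the 0.8 limit.

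**Figure D2:**
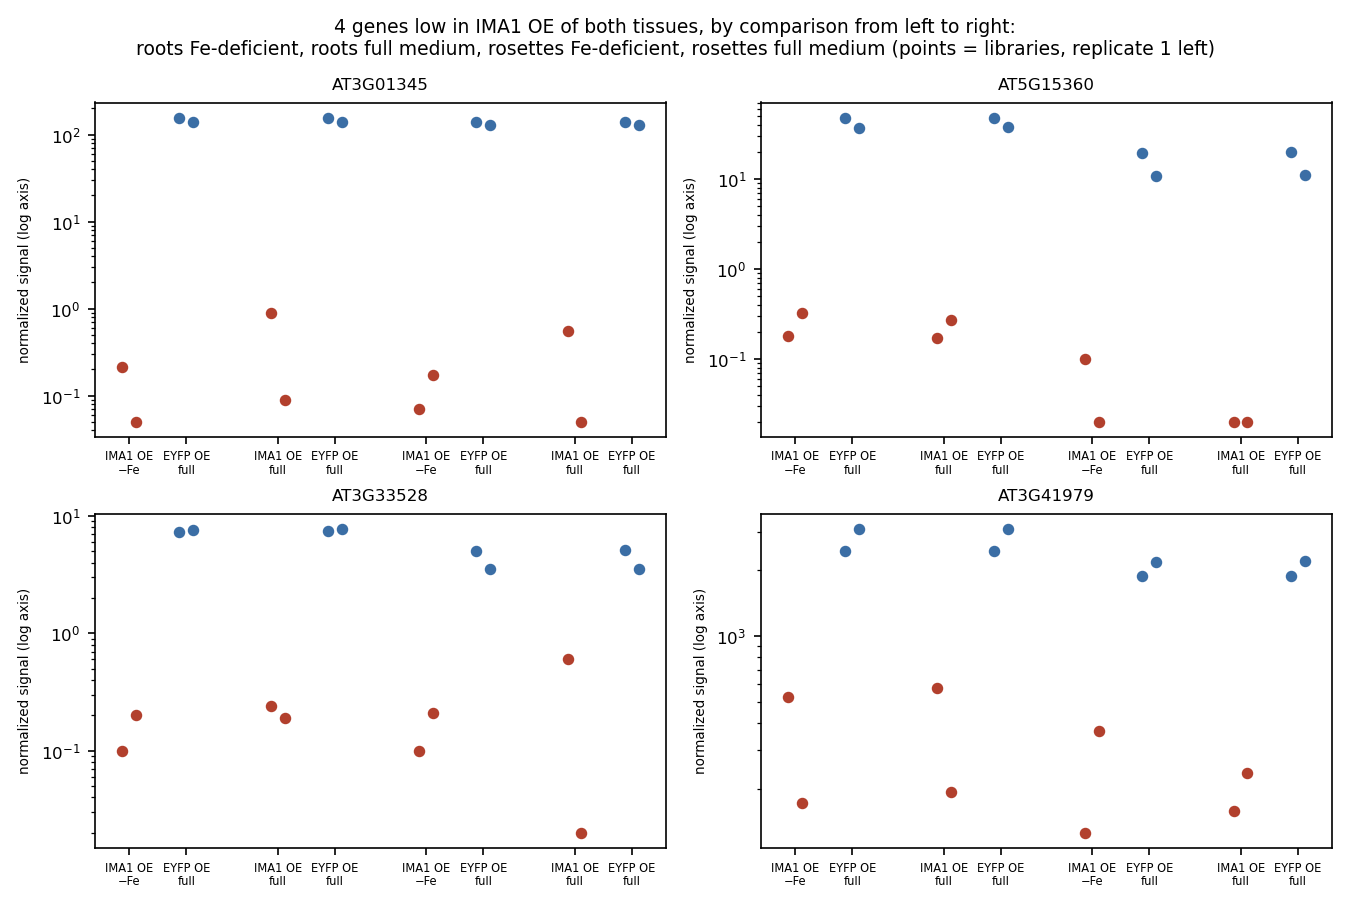
Normalized signal (vertical axis, log scale) of the 4 genes that met the rule's conditions in all 4 tables; each point is 1 library, red for IMA1 OE and blue for EYFP OE, with each IMA1 OE group left of the EYFP OE columns of its own table. In every pair of groups the IMA1 OE points lie below the EYFP OE points, from AT3G01345 with values under 1 against values of 129 or more to AT3G41979 with 126 to 577 against 1876 to 3091.

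The zinc group held 7 genes of a list of 13 zinc-responsive transport genes. They were the ZIP-family importers ZIP1, ZIP2, ZIP3, ZIP4 and IRT3, the zinc pump HMA2, which loads zinc into the xylem, and NAS4, which makes nicotianamine. ZIP2 had the largest fall of the group. It stood at 3.97 and 4.44 in Fe-deficient IMA1 OE roots, against 20.7 and 17.0 in EYFP OE roots, and at 16.0 and 16.9 in IMA1 OE roots on full medium, against 21.0 and 17.3. The values on Fe-deficient medium lay far under the others, while those on full medium lay just under the EYFP OE range (log2 change -0.20).

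ZIP4 was at 4.43 and 4.58 in Fe-deficient IMA1 OE roots, against 10.6 and 12.3 in EYFP OE roots. On full medium it was on the other side, at 14.5 and 14.9 in IMA1 OE, against 10.8 and 12.5 (log2 change 0.31). IRT3 was at 20.7 and 23.5 in Fe-deficient IMA1 OE roots, against 46.4 and 61.8 in EYFP OE roots, and at 51.0 and 54.3 in IMA1 OE on full medium, against 46.6 and 62.1. ZIP3 and ZIP1 had the same form, low on Fe-deficient medium (-1.16 and -0.80) and overlapping with EYFP OE on full medium (-0.15 and 0.13). ZIP1 overlaps the gene ALIS1 on the opposite strand, and whether counting used strand is not given in the sources used here, so its value is uncertain.

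HMA2 and NAS4 differed from the importers in being low on both media. HMA2 was at 4.91 and 6.97 in Fe-deficient IMA1 OE roots, against 16.3 and 18.7 in EYFP OE roots, and at 4.94 and 7.68 in IMA1 OE on full medium, against 16.4 and 18.8. NAS4 was at 5.94 and 7.95 in Fe-deficient IMA1 OE roots, against 17.4 and 15.4 in EYFP OE roots, and at 5.98 and 12.5 in IMA1 OE on full medium, against 17.7 and 15.7. The groups did not overlap for either gene on either medium. Across the 7 genes the difference between the media, the Fe-deficient minus the full-medium change, had a median of -1.01 and ran from -1.73 for ZIP2 to -0.06 for HMA2. It is set across separately normalized tables and has no test.

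Over the whole zinc list the median change in Fe-deficient roots was -0.80, and 8 of 13 were negative. Because 7 of the 13 were chosen for falls of at least 0.8, that median was fixed by the choice of the genes. The count of negative genes includes those 7, and nothing is read from either value. Of the 11 list genes tested, 5 passed limma's adjusted p of 0.05 as lower, all of them among the 82 and so chosen on that contrast, and 0 as higher. Outside the 82, ZIP5 was at 3.6 and 3.31 in Fe-deficient IMA1 OE roots, against 5.52 and 7.85 in EYFP OE roots, a change of -0.77 that fell short of the rule. ZIP9, another importer, went the other way, at 8.37 and 4.43 against 1.17 and 1.22 (log2 change 1.70, SE 0.27, limma adjusted p 0.0998). On full medium the list had a median of 0 and 0 calls.

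**Figure D3:**
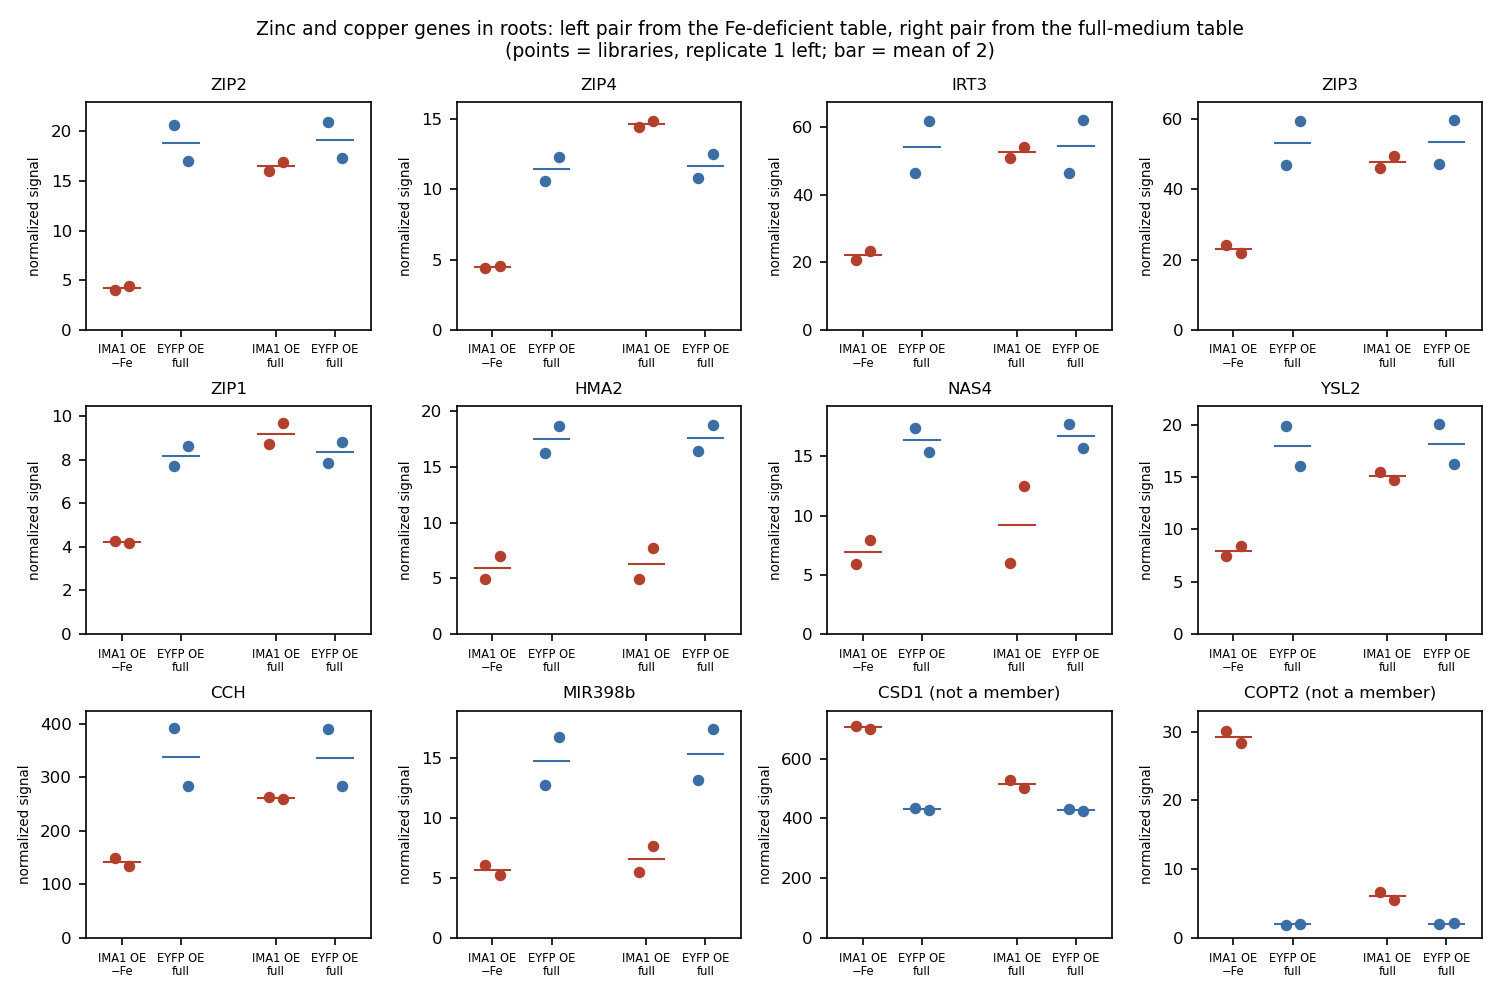
Normalized signal (vertical axis) of zinc and copper genes in root libraries; red points are IMA1 OE, blue points EYFP OE, bars are means of 2, and each IMA1 OE group stands left of the EYFP OE columns of its own table. ZIP1, ZIP3, ZIP4 and IRT3 lie under EYFP OE without overlap in Fe-deficient IMA1 OE roots alone, ZIP2 lies far under it there and just under it on full medium, HMA2, NAS4 and MIR398b are low on both media, and CSD1 and COPT2, which are not among the 82 genes, lie above EYFP OE.

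In rosettes NAS4 and IRT3 were the zinc genes furthest below EYFP OE. NAS4 stood at 10.9 and 12.4 in Fe-deficient IMA1 OE rosettes, against 23.3 and 18.0 in EYFP OE rosettes (log2 change -0.77, SE 0.17, limma adjusted p 0.692). On full medium it stood at 8.99 and 10.3, against 23.7 and 18.3 (-1.04, SE 0.17, limma adjusted p 0.293). IRT3 was at 3.79 and 5.7 in Fe-deficient IMA1 OE rosettes, against 14.0 and 12.4 (-1.32, SE 0.20, limma adjusted p 0.648). NAS4 was below both EYFP OE values on both media, but neither gene passed. On full medium IRT3 split between the IMA1 OE replicates, at 7.34 and 25.5, against 14.2 and 12.6. ZIP2 and ZIP3 were at 0.53 or less in every rosette library.

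The copper group held CCH, a copper chaperone, YSL2, a transporter of metal-nicotianamine complexes, and the microRNA genes MIR398b and MIR398c. CCH was at 149 and 134 in Fe-deficient IMA1 OE roots, against 391 and 284 in EYFP OE roots, and at 262 and 259 in IMA1 OE on full medium, against 390 and 283. YSL2 was at 7.45 and 8.36 in Fe-deficient IMA1 OE roots, against 19.9 and 16.1, and at 15.4 and 14.7 in IMA1 OE on full medium, against 20.1 and 16.2. For both, the full-medium values lay between those of Fe-deficient IMA1 OE and of EYFP OE. MIR398b was low on both media, at 6.09 and 5.26 in Fe-deficient IMA1 OE roots, against 12.8 and 16.8, and at 5.51 and 7.69 in IMA1 OE on full medium, against 13.2 and 17.5. MIR398c, with 5 GTAC cores upstream beside the 7 of MIR398b, was at 1.21 and 0.88 in Fe-deficient IMA1 OE roots, against 2.75 and 2.74. The reads of such similar loci could be divided between them by the counting, and MIR398b and YSL2 overlap genes on the opposite strand, so their values are uncertain.

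Transcripts known in Arabidopsis to be targeted by microRNA398 lay on the other side in the same roots. CSD1, a copper/zinc superoxide dismutase of the cytosol, was at 710 and 698 in Fe-deficient IMA1 OE roots, against 435 and 428 in EYFP OE roots (log2 change 0.71, SE 0.05, limma adjusted p 0.00814). CCS, the chaperone that loads these enzymes with copper, was at 72.9 and 66.3, against 44.3 and 44.7 (0.63, SE 0.07, limma adjusted p 0.0372). CSD2, the dismutase of the chloroplast, was at 189 and 217, against 153 and 167, and did not pass (0.34, SE 0.09, limma adjusted p 0.317). On full medium the root changes of CSD1, CCS and CSD2 were 0.26, 0.22 and 0.18, with 0 calls.

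The targets stood further apart in rosettes, where MIR398b was at 0.13 in every library. CSD1 was at 427 and 419 in Fe-deficient IMA1 OE rosettes, against 127 and 124 in EYFP OE rosettes (log2 change 1.75, SE 0.12, limma adjusted p 0.275). CSD2 was at 747 and 792, against 170 and 210 (2.02, SE 0.16, limma adjusted p 0.326). CCS was at 123 and 132, against 38.3 and 35.7 (1.76, SE 0.11, limma adjusted p 0.275). Among genes with EYFP OE rosette values of at least 2, 13% on Fe-deficient and 12.1% on full medium lay above EYFP OE without overlap. CSD1, CSD2 and CCS did so on both media, which share their EYFP OE libraries. None of the 6 comparisons passed limma's threshold. On full medium IMA1 OE replicate 2 was lower than replicate 1 for all 3, as for CSD1 at 415 and 220, against 127 and 124.

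MIR398c, the copper microRNA gene with signal in rosettes, was at 2.66 and 5.39 in Fe-deficient IMA1 OE rosettes, against 8.69 and 5.69 in EYFP OE rosettes (-0.74, SE 0.34, limma adjusted p 0.995). On full medium it was at 5.2 and 2.44, against 8.8 and 5.78 (-0.82, SE 0.34, limma adjusted p 0.968). The groups did not overlap, but came close in 1 library of each. YSL2 was at 1.24 and 1.33 in Fe-deficient IMA1 OE rosettes, against 6.81 and 4.46 (-1.52, SE 0.22, limma adjusted p 0.648), and at 1.4 and 2.87 on full medium, against 6.89 and 4.54 (-1.12, SE 0.31, limma adjusted p 0.605). CCH was at 132 and 144 in Fe-deficient IMA1 OE rosettes, against 229 and 235 (-0.75, SE 0.12, limma adjusted p 0.648). Of the 4 copper genes, 3 thus lay below EYFP OE without overlap on both media in rosettes. Both media were compared with the same EYFP OE rosette libraries. Of all genes with EYFP OE root values of at least 2, 18.8% and 17.9% lay below in this way. None of the 3 copper genes passed limma's threshold in rosettes, and the fourth, MIR398b, had no signal to compare.

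**Figure D4:**
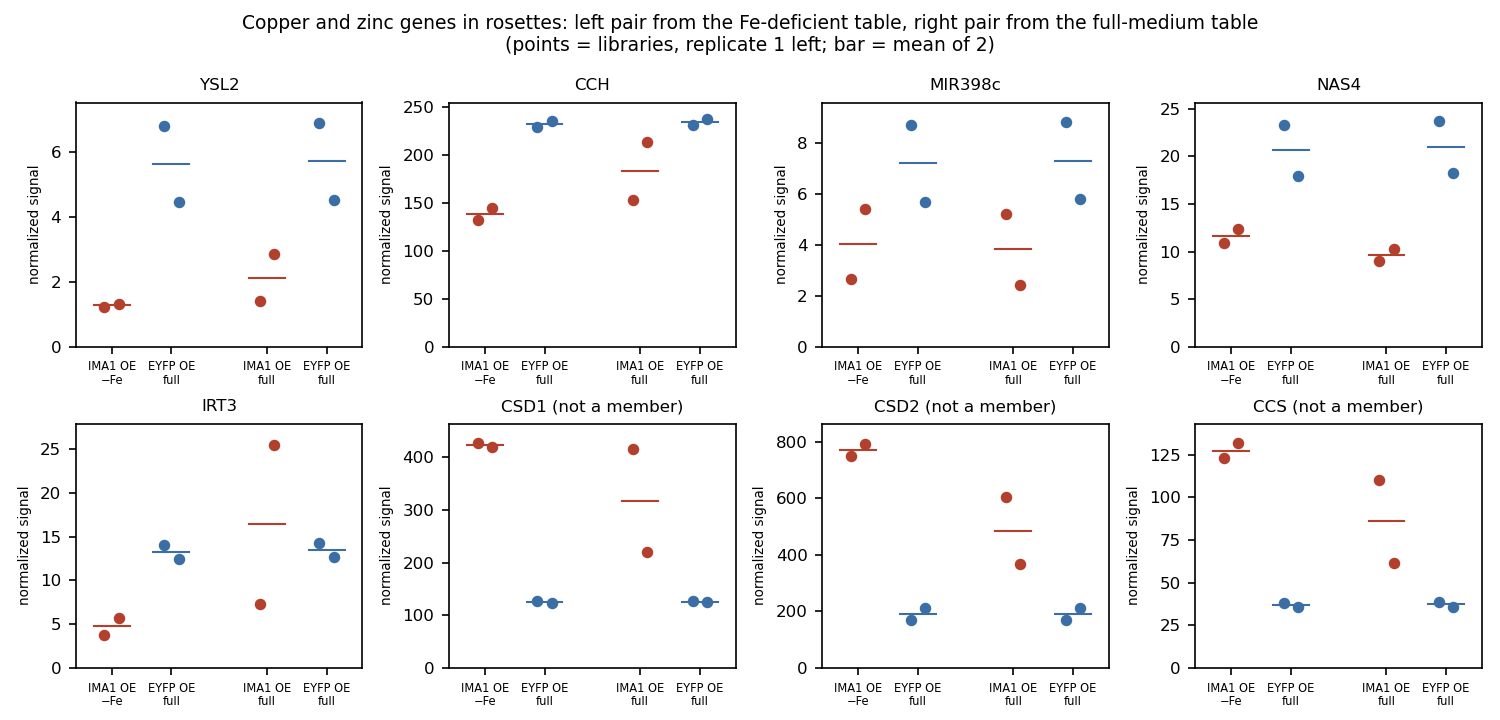
Normalized signal (vertical axis) of copper and zinc genes in rosette libraries, with red points for IMA1 OE, blue points for EYFP OE and bars for means of 2; each IMA1 OE group stands left of the EYFP OE columns of its own table. YSL2, CCH, MIR398c and NAS4 lie below EYFP OE on both media, IRT3 on Fe-deficient medium alone, and CSD1, CSD2 and CCS, which are not among the 82 genes, lie above EYFP OE.

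The copper list of 9 genes had 3 calls higher (COPT2, CSD1 and CCS) in Fe-deficient roots, where 0.773% of all tested genes passed as higher. The call lower was that of YSL2, which was chosen on that contrast. COPT2, a copper importer that is also known to respond to Fe deficiency, was at 30.1 and 28.3 in Fe-deficient IMA1 OE roots, against 1.95 and 2.07 in EYFP OE roots (3.33, SE 0.09, limma adjusted p 0.000394). In rosettes its direction differed, at 1.02 and 1.53 on Fe-deficient medium, against 6.45 and 3.99 (-1.43, SE 0.26, limma adjusted p 0.648). FRO4, a copper reductase, was at 0.32 and 0.36 in Fe-deficient IMA1 OE roots, against 2.56 and 1.58 in EYFP OE roots, and missed the rule by its second EYFP OE value. SPL7 was at 27.8 and 25.4, against 29.3 and 25.5, a change of -0.04.

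The anthocyanin group had the largest falls after the genes low in both tissues. Its members were DFR and LDOX, late enzymes of anthocyanin synthesis, GSTF12, which is needed to carry anthocyanins into the vacuole, and the glycosyltransferases UF3GT and AT4G14090. DFR was at 0.05 and 2.5 in Fe-deficient IMA1 OE roots, against 6.01 and 16.3 in EYFP OE roots. LDOX was at 0.12 and 2.98, against 7.27 and 16.4, and GSTF12 at 0.17 and 3.11, against 8.52 and 14.7. The falls of the 5 genes ran from -2.52 to -1.39, with SEs of 0.40 to 0.69.

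On full medium all 5 overlapped with EYFP OE. DFR was at 0.21 and 9.98 in IMA1 OE roots on full medium, against 6.19 and 16.6, and LDOX at 0.06 and 9.99, against 7.46 and 16.7. In each gene replicate 1 was at 0.6 or less and replicate 2 was within the EYFP OE range. Replicate 1 was lower than replicate 2 for 5 of 5 genes in every group, roots and rosettes, IMA1 OE and EYFP OE alike. Within libraries of the same number, IMA1 OE was lower than EYFP OE for 5 of 5 genes in both numbers. This held for full-medium roots and for rosettes on both media. In Fe-deficient roots the rule required it, and full-medium roots share the EYFP OE libraries that the rule used. Nothing in the labels pairs libraries of the same number. In rosettes the 5 changes had medians of -0.49 on Fe-deficient medium and -0.80 on full medium, and 0 passed (the lowest limma adjusted p was 0.818 and 0.92). GSTF12 and AT4G14090 overlap genes on the opposite strand, so their values are uncertain.

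The photosynthesis group was the largest, with 20 genes of light harvesting, the photosystems, carbon fixation and photorespiration. Their falls in Fe-deficient roots were small, with a median of -0.87 and a range from -1.30 to -0.80. CAB1, a light-harvesting protein of photosystem II, was at 126 and 168 in Fe-deficient IMA1 OE roots, against 328 and 243 in EYFP OE roots. RBCS1A, a small subunit of Rubisco, was at 55.4 and 98.0, against 135 and 136. CAB3 was at 2.71 and 6.59, against 15.1 and 9.63. IMA1 OE replicate 1 was below replicate 2 for 20 of 20 genes on Fe-deficient medium and for 18 of 20 on full medium, while in EYFP OE it was so for 13 of 20. CAB1 with CAB3 and the RBCS genes are near-identical copies between which reads could be divided. CAB1 also overlaps NRPA2 on the opposite strand, so its value is uncertain.

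These genes are expressed mainly in leaves, and in EYFP OE roots they stood at a median of 1.2% of their EYFP OE rosette level (range 0.22% to 22.3%, across separately normalized tables). Of the 11 green-tissue markers, 4 are among the 82 genes and so were chosen for low values. The summed signal of the other 7 was 84.0 and 116 in Fe-deficient IMA1 OE roots, against 157 and 155 in EYFP OE roots, and 96.3 and 137 in IMA1 OE roots on full medium, against 158 and 157. This sum too was lower in each IMA1 OE root library than in each EYFP OE root library of its table. The part of green tissue in the change of the 20 genes was not tested. In rosettes the median changes of the 20 were 0.01 and -0.03, with 0 limma calls. Several of the highest rosette values were exactly equal between 2 or more libraries of a table (6 of the 12 genes above 1000 in each rosette table), which limits what those genes can show.

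**Figure D5:**
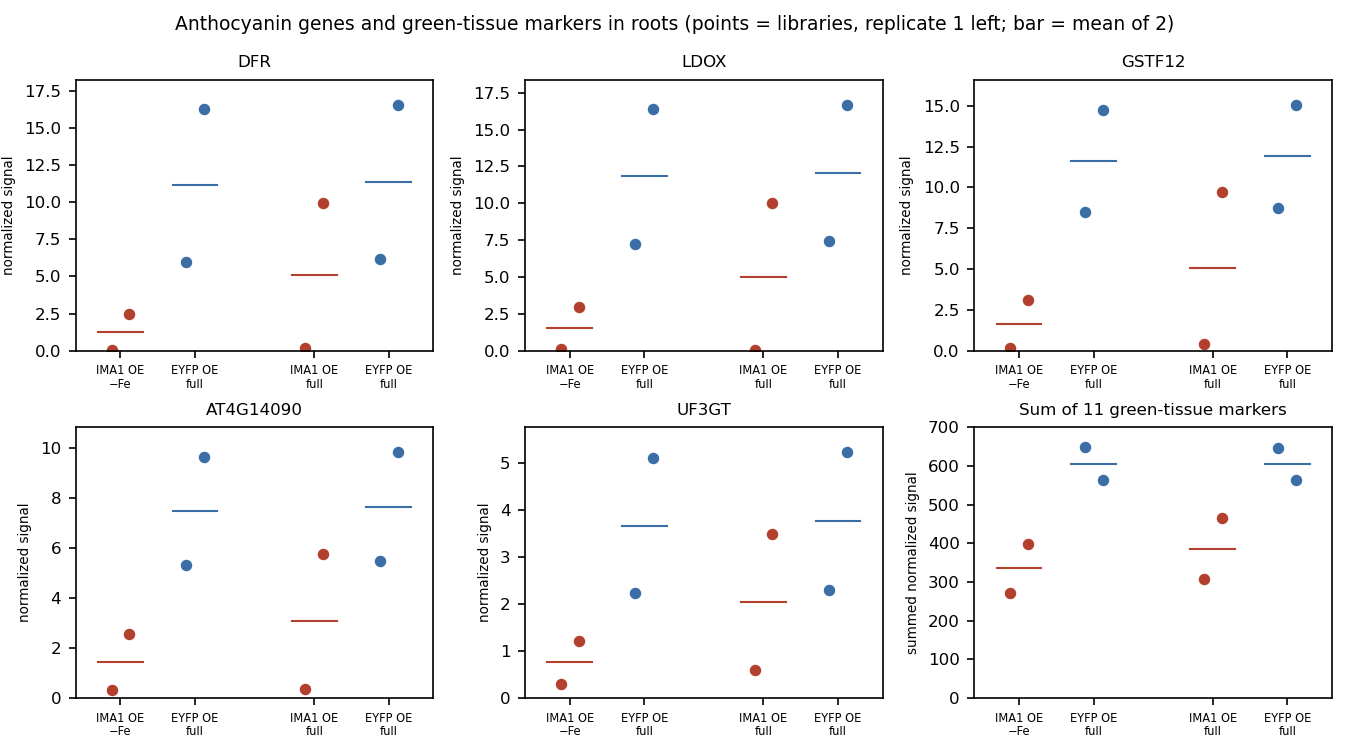
Normalized signal (vertical axis) of the 5 anthocyanin genes and the summed signal of 11 green-tissue markers in root libraries; red points are IMA1 OE, blue points EYFP OE, replicate 1 stands left of replicate 2, and bars are means of 2. In every anthocyanin panel replicate 1 lies under replicate 2, on full medium the groups overlap, and the marker sum in IMA1 OE (272 to 466) lies under that in EYFP OE (563 to 648), 4 of the 11 markers being among the chosen genes.

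Genes of cold and water deficit formed a group of 7. KIN1 and KIN2, small stress-induced proteins that neighbour each other and are closely similar, were the most abundant. KIN1 was at 110 and 93.3 in Fe-deficient IMA1 OE roots, against 247 and 239 in EYFP OE roots, and at 102 and 151 in IMA1 OE on full medium, against 246 and 238. RD26, a NAC transcription factor of the drought response, was at 19.0 and 20.1 on Fe-deficient medium, against 34.7 and 39.5, and SNRK2.7, a protein kinase, at 8.34 and 9.33, against 17.8 and 17.0. The cold transcription factors DREB1A and CBF1 were low (1.46 to 3.48, against 3.75 to 7.52), with EYFP OE replicate 2 near the IMA1 OE values. In rosettes 0 of the 7 lay wholly below EYFP OE on either medium. Of all genes with EYFP OE root values of at least 2, 18.8% did so on Fe-deficient and 17.9% on full medium. With 7 genes nothing is read from that count. KIN2 in rosettes differed more between replicates than between lines, at 300 and 74.3 in Fe-deficient IMA1 OE, against 357 and 54.5.

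Among the genes with iron in their annotation, 1 lay on opposite sides of EYFP OE on the root media. AT1G76800, a vacuolar iron transporter-like gene known as VTL2, was at 2.57 and 3.58 in Fe-deficient IMA1 OE roots, against 4.8 and 11.2 in EYFP OE roots. On full medium it was at 33.5 and 32.8, against 4.95 and 11.5, a change of 1.99 (SE 0.35, limma adjusted p 0.504). VTL2 is on a list of 10 genes of iron storage and import into the vacuole, and the higher level on full medium was not its alone. Over that list the median change was 0.50 in full-medium roots, with 1 gene negative, and -0.06 in Fe-deficient roots, with 5 negative. No list gene passed limma in either. In rosettes on full medium VTL2 also lay above EYFP OE, at 10.4 and 11.5, against 3.1 and 6.96. NEET, an iron-sulfur protein, was at 0.39 and 1.47 in Fe-deficient IMA1 OE roots, against 2.49 and 2.64. No gene of the list of 15 Fe-uptake genes was among the 82. In Fe-deficient IMA1 OE roots 14 of the 15 passed limma as higher, where 0.773% of all tested genes did. The median change of the 15 was 4.17, beside -0.02 over all tested genes.

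The defensin-like genes AT3G59930 and AT5G33355 showed the same turn. AT3G59930 was at 99.9 and 77.9 in Fe-deficient IMA1 OE roots, against 297 and 290 in EYFP OE roots, but at 427 and 346 in IMA1 OE on full medium, against 295 and 289. AT5G33355 was at 100 and 60.2 on Fe-deficient medium, against 188 and 190, and at 316 and 261 on full medium, against 189 and 192. The pair are similar in sequence and reads could be divided between them, so they may be 1 observation. The difference between the media was -2.12 and -1.86 on the log2 scale, larger than the median of any other group.

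Among the remaining genes AT5G03545, annotated as expressed in response to phosphate starvation, was at 29.2 and 43.8 in Fe-deficient IMA1 OE roots, against 75.1 and 71.5 in EYFP OE roots. It was low on full medium too (-1.15), and in Fe-deficient rosettes it was at 6.61 and 5.6, against 13.7 and 10.6 (-0.88, SE 0.17, limma adjusted p 0.648). PHO1;H1, a phosphate exporter of the vasculature, was at 7.85 and 7.44, against 16.6 and 14.3, and is the gene of the 82 on a list of 10 phosphate-starvation genes. Its limma call was the only one on that list in these roots, and it rests on the contrast that chose the gene. VSP2, a jasmonate-responsive storage protein, was at 27.8 and 39.5 on Fe-deficient medium, against 83.7 and 72.4, and at 35.3 and 44.9 on full medium, against 83.6 and 72.6. AT1G52820, annotated as an Fe(II)-dependent oxygenase, was at 0.81 and 5.39, against 7.26 and 37.1, and differed severalfold between replicates of either line. It overlaps AT1G52825 on the opposite strand, so its value is uncertain. GOX1, CWINV5, PLP4 and DREB1A also overlap genes on the opposite strand and have the same limit. AT3G51632, with no annotation in the sources used here, was at 0.01 in both Fe-deficient IMA1 OE root libraries, against 11.8 and 10.6, and at 12.2 and 11.2 on full medium, against 12 and 10.8; since it also stood at 0.01 in 1 rosette library and at 7.73 in its replicate, its fall is uncertain.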

How the data were processed

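The authors deposited, for each comparison, a normalized signal per gene and library (table names give TMM and no unit), a p-value and a log2 fold change, per the file headers. The submitters' processing notes name build TAIR10, bcl2fastq 1.8.4, Trimmomatic 0.35, Bowtie2 2.0.6, edgeR 3.12.1 and limma 3.26.9, without roles; the counting step is not given in the sources used here. The library kit keeps strand, per the labels. The 4 tables were normalized separately, so tests stayed within a table, and no sequencing depth can be read from the values. EYFP OE root values of the genes reported differed by -0.672% to 5.56% between the root tables.

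Columns were matched by heading and label, with 0 per-sample columns unused. From there, log2(value + 1) was analysed, which understates changes of low genes. Genes reaching 1 in 2 or more of a table's 4 libraries entered a limma 3.58.1 fit in R 4.3.3, with an intensity trend. Tests were two-sided, p-values were adjusted by Benjamini-Hochberg over all tested genes, and 0.05 was the threshold; the fit was tested on simulated data. Paired values are replicates 1 and 2 in that order. Named were the 12 largest falls, list members, genes low in all 4 tables, genes at the edge of the rule, genes furthest apart between media and the most abundant; any other gene was chosen after its values were seen. The members, functional groups and 11 gene lists were chosen with earlier results of these data known. Alternatives were another pseudocount, minimum and fall, no filter, no trend, a replicate block and each library left out.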

Additional observations from a re-analysis of the deposited data

Results flagged for a closer look

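Several of the 82 genes lay below both EYFP OE values in Fe-deficient IMA1 OE roots and above both EYFP OE values in another comparison. For none of them was the difference between the comparisons itself tested. In roots on full medium they were AT1G76800 (log2 change 1.99), AT5G33355 (0.59), AT3G59930 (0.39) and ZIP4 (0.31). Among genes with EYFP OE root values of at least 2, 13.1% lay above EYFP OE without overlap on full medium.

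In rosettes on full medium AT1G76800 (1.06) and the iron-sulfur protein NEET (0.77) lay furthest above EYFP OE. AT4G29905 (0.33), AT2G41810 (0.30), RD26 (0.27), ENH1 (0.24), ALDH11A3 (0.22) and AT5G20820 (0.17) followed. Among genes with EYFP OE rosette values of at least 2, 12.1% lay above without overlap on full medium. In Fe-deficient rosettes ALDH11A3 (0.25), AT2G41810 (0.23), SNRK2.7 (0.17) and AT4G29905 (0.16) lay above, beside 13% of genes with such EYFP OE values. AT2G41810 and SNRK2.7 were under 2 in EYFP OE rosettes and so are outside the genes these shares count. Most of these rosette changes are small: 9 of the 12 are under 0.3 on the log2 scale, and AT2G41810 was at 0.56 or less in every rosette library.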

How the results depend on the processing

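With a pseudocount of 0.1 the rule found 128 genes, including all 82, of which 31 were also lower on full medium, and the limma count in full-medium rosettes was 0. With a fall of 1.0 it found 44 genes, 12 of them also lower on full medium, with rosette medians of -0.32 on Fe-deficient and -0.18 on full medium. With a minimum of 5 it found 62 genes, 4 of them lower in full-medium rosettes. Leaving out 1 library gave 101 to 171 genes, holding 54 to 72 of the 82. Under the same step 12 to 42 genes were also lower on full medium, 10 to 18 were lower in full-medium rosettes and 8 to 17 in Fe-deficient rosettes. The medians were then -0.84 to -0.27 in full-medium roots, -0.20 to -0.047 in full-medium rosettes and -0.15 to -0.11 in Fe-deficient rosettes. The limma counts were 0 to 2 in full-medium roots and 0 in both rosette tables, where 3 libraries were fitted and the lone one was assumed to vary like the others. When every gene was fitted, however low, 0 of the 82 passed in full-medium rosettes.

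A replicate block gave 4 calls among the 82 in full-medium rosettes, in place of 1, and the counts in full-medium roots (3) and Fe-deficient rosettes (1) were as without it. Nothing in the labels ties equal numbers to a batch; the replicate differences of IMA1 OE and EYFP OE correlated across genes at 0.24 to 0.45 in the 4 tables. For these values the cause was not tested. Of the 79 values recomputed under an alternative, 48 stayed within 1.5 times (counts) or within the spread between library pairs (medians), and 31 moved further. A value near 0 cannot be told from a gene without reads.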
